A study of Homo sapiens with 10 samples.

Results

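CRIP1, PDE4B, CPA4 and GH1 are 4 of 18034 genes listed in mRNA sequencing tables of HCT116, a long-established line of human colorectal carcinoma cells. They were chosen by symbol because their transcripts were near absent in cells given DMSO and high in cells with CDK9 knocked down, so that difference is how they came to be described and is given here as values with no test. The title of the study ties CDK9, the catalytic subunit of P-TEFb, and DOT1L, which methylates histone H3, to how double-strand breaks are repaired. Libraries came from 5 groups of 2. In the inhibitor experiment, HCT116 cells were kept for 72 h in DMSO, the solvent, or in 10 µM EPZ-5676, which inhibits DOT1L and gives the group named EPZ. In the knockdown experiment, every group carried an shRNA against CDK9, and the groups are labelled EV (not expanded in the labels), WT (wild-type CDK9 put back) and K56A (CDK9 with the K56A change put back). No group of the knockdown experiment lacks the shRNA, and the sources used here do not say whether the lines are single clones, which promoter drives the added CDK9 or whether both experiments began from one stock of cells. The experiment, the shRNA, the line and the deposited table therefore cannot be told apart in any level set between the experiments.

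The 4 genes have unrelated products. CRIP1 encodes a small zinc-binding protein with a LIM domain, known to be abundant in the intestine. PDE4B encodes a phosphodiesterase that hydrolyses cyclic AMP, the second messenger made by adenylyl cyclases and read by protein kinase A and EPAC proteins. CPA4 encodes a secreted metallocarboxypeptidase of the M14 family, which removes C-terminal residues from peptides and is blocked by the inhibitor latexin. GH1 encodes pituitary growth hormone, which binds the receptor GHR and signals through JAK2 and STAT5 to genes such as IGF1, SOCS2 and CISH. GH1 stands in a cluster with GH2, CSH1, CSH2 and CSHL1, whose products are known from the placenta.

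Values are FPKM, a level corrected for transcript length and library size, as the authors deposited them per transcript and summed here per gene. FPKM is per length, so levels of different genes can be set side by side. On GRCh38, CRIP1 (ENSG00000213145) lies at chr14:105486317-105488947 on the plus strand and PDE4B (ENSG00000184588) at chr1:65792514-66374579 on the plus strand. CPA4 (ENSG00000128510) lies at chr7:130293134-130324180 on the plus strand and GH1 (ENSG00000259384) at chr17:63917203-63918838 on the minus strand. All are annotated as protein-coding, and each span covers the transcripts listed in the tables.

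GH1 needs its sequence shown first, because a single transcript stood for the gene and most of it is shared with other genes. GH1-206, the only GH1 transcript listed in the tables, is 1 of 6 in GENCODE v29. It is 376 bases long, with an exon of 72 bases (chr17:63918767-63918838) joined to one of 304 bases (chr17:63917203-63917506), whereas GH1-201, which codes for the full hormone, has 5 exons. Its annotated coding stretch has 90 bases, against 651 in GH1-201. In GH1-201 the last exon holds 195 of those coding bases and starts on a whole codon. In GH1-206 it follows only 10 coding bases, so it starts inside a codon. Past the bases of its first exon, the coding stretch of GH1-206 is therefore read in another frame and does not encode growth hormone sequence. That stretch is printed below without its stop codon, with the bases of the first exon in capitals:
GH1-206: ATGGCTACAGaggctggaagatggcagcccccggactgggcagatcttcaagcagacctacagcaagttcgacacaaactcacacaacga

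The lower-case part of it lies in the last exon, where the genes of the cluster are nearly alike. The next 4 lines set those 80 bases beside the same place in the last exon of 3 neighbours, with capitals marking bases that differ from GH1. The places on GRCh38, minus strand, are chr17:63917427-63917506 for GH1, chr17:63880439-63880518 for GH2, chr17:63895140-63895219 for CSH1 and chr17:63872244-63872323 for CSH2:
GH1: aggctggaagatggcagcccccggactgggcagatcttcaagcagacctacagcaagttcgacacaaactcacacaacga
GH2: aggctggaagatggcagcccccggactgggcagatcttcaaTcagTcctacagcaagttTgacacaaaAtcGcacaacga
CSH1: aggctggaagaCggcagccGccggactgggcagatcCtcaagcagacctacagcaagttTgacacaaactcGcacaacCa
CSH2: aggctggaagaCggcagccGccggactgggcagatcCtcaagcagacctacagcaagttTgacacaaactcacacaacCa

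GH2 differs from GH1 at 5 of the 80 bases (93.8% identical), CSH1 at 6 (92.5%) and CSH2 at 5 (93.8%). Over the whole of GH1-206, 279 of its 327 stretches of 50 bases (85.3%) also occur in transcripts of other genes, namely GH2, CSH1, CSH2, CSHL1 and AC127029.3. Those 5 genes have no row in the 3 tables, and neither do the other GH1 transcripts. GH1 values are therefore uncertain as to which gene of the cluster the reads came from. CRIP1 shares sequence too: 380 of the 436 stretches of 50 bases in its main transcript, CRIP1-202 (87.2%), also occur in AL928654.3, an overlapping gene model at the same locus. AL928654.3 was listed in the table of EV and K56A only, at 0 and 1.22 FPKM in EV and 0 and 1.17 FPKM in K56A, far under CRIP1 in the same libraries. The main transcript of PDE4B, PDE4B-203, had 0 of 3933 stretches in other genes, and that of CPA4, CPA4-201, had 22 of 2739 (0.803%). These counts use GENCODE v29 sequence, and the deposited coordinates of CRIP1-202 and CPA4-201 differ from that release.

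The sequence just before the start of the main transcript is shown for CRIP1, PDE4B and CPA4, because they were high in the same 6 libraries and could be compared for shared elements. The windows come from RefSeq (GRCh38.p14, plus strand), in which 3 of the 4 genes matched an entry: chr14:105486636-105486885 for CRIP1, chr1:66331858-66332003 for PDE4B and chr7:130292911-130293160 for CPA4. Capitals mark matches to the motifs searched:
CRIP1: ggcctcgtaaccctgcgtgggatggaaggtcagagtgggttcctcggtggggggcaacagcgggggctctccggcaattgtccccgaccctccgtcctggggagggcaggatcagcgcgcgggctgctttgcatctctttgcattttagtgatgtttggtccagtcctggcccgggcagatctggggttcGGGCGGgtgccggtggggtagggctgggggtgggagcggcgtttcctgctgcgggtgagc
PDE4B: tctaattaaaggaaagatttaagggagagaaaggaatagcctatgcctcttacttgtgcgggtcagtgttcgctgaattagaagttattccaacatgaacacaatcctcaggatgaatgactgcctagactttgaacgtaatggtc
CPA4: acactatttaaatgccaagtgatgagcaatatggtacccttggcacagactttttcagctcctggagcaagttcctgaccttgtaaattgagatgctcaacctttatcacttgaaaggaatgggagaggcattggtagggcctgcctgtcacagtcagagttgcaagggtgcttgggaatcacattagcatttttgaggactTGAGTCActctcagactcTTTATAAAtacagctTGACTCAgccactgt

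The motifs searched, on both strands, were TATAAA (the TATA box), TGANTCA (AP-1), TGACGTCA (the cyclic AMP response element) and GGGCGG (SP1). No motif stood in all 3 windows. The 250 bases before CPA4-201 held 2 copies of TGANTCA and TATAAA on both strands, the last as 1 overlapping run, TTTATAAA. Of 35116 RefSeq windows of the same length, 6.57% held TGANTCA and 10.7% held TATAAA. The 250 bases before CRIP1-202 held 1 GGGCGG, present in 42.6% of windows, and the 146 bases before PDE4B-203 held none of the 4 motifs. Base composition differed among them: 66.8% G or C with 17 CpG in CRIP1 and 44.4% with 0 CpG in CPA4, against medians of 58% and 11 over all windows of 250 bases. PDE4B had 40.4% with 3 CpG, against medians of 59.6% and 7 over windows of 146 bases. Its window is short because the RefSeq entry begins 146 bases before PDE4B-203. The comparison windows end at the start site of each RefSeq entry, which need not be where the main transcript used here starts. The positions compared may therefore differ.

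The libraries were first set against their labels. CDK9 was at 37.6 and 43.9 FPKM in DMSO, 16.4 and 19.4 FPKM in EV, 2976 to 3060 FPKM in WT and 2500 to 2611 FPKM in K56A. DOT1L was at 10.4 to 12.6 FPKM in the inhibitor libraries, 324.2 and 342.7 FPKM in EV, 568.3 and 578.0 FPKM in WT and 702.9 and 733.1 FPKM in K56A. All 10 epithelial markers, among them EPCAM, CDH1 and KRT8, were at 1 FPKM or more in every library. Of 10 colon markers, only CDX2 was, and 6 of those markers had no row. Of 9 pituitary markers other than growth hormone, only LHB was listed, and the summed level ran from 0.982 to 3.31 FPKM over the 10 libraries, with no row for POU1F1 or PRL. Neural markers summed to 286.0 to 365.4 FPKM in the inhibitor libraries and 91.3 to 107.1 FPKM in the knockdown libraries, with 3 of 6 at 1 FPKM or more in every library and 2 without a row. Fibroblast markers summed to 19.4 to 23.2 and 27.6 to 36.3 FPKM, and COL1A1, a collagen gene, was the 1 of 6 at 1 FPKM or more in every library. Blood cell markers summed to at most 0.972 FPKM and endothelial markers to at most 0.618 FPKM in any library. RNA from mitochondrial genes made up 17.3% to 19.3% of all FPKM in the inhibitor libraries and 25.4% to 27.9% in the knockdown libraries. The 10 housekeeping genes summed to 10663 to 11442 FPKM in the inhibitor libraries and 5798 to 6268 FPKM in the knockdown libraries. The part of these differences in the levels of the 4 genes was not tested, beyond the other scalings given with the limits. In bulk libraries, fewer cells with a transcript and less of it per cell cannot be told apart.

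CRIP1 had the highest level of the 4 genes in the knockdown lines. The DMSO libraries were at 0 and 1.51 FPKM and the EPZ libraries at 0.767 and 0 FPKM. EV libraries were at 68.9 and 72.1 FPKM, WT at 71.0 and 70.9 FPKM and K56A at 78.3 and 77.2 FPKM. Every knockdown library stood above every inhibitor library, and the groups of the inhibitor experiment overlapped. By group mean the order was K56A (77.8 ± 0.800 FPKM, SD, n = 2), WT (70.9 ± 0.0449), EV (70.5 ± 2.26), DMSO (0.753 ± 1.06) and EPZ (0.384 ± 0.543). WT and EV, next to each other in this order, overlapped, and so did DMSO and EPZ.

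PDE4B followed in level. DMSO gave 0.398 and 0.541 FPKM and EPZ 0.799 and 0.527 FPKM. EV gave 42.4 and 42.3 FPKM, WT 41.7 and 42.0 FPKM and K56A 40.0 and 41.7 FPKM. The 6 knockdown libraries lay close together, from 40.0 to 42.4 FPKM, and their 3 lines did not overlap, whereas the DMSO and EPZ libraries did. In order, the means were EV (42.3 ± 0.0811 FPKM, SD, n = 2), WT (41.9 ± 0.177), K56A (40.9 ± 1.18), EPZ (0.663 ± 0.192) and DMSO (0.469 ± 0.101).

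CPA4 was the third in level. It stood at 0 and 0.564 FPKM in the DMSO libraries and at 0.601 and 0.665 FPKM in the EPZ ones. Levels were 23.1 and 23.2 FPKM for EV, 21.7 and 21.1 FPKM for WT and 21.6 and 23.7 FPKM for K56A. The K56A libraries spanned the levels of EV and reached into those of WT, and the EPZ libraries both stood above the DMSO ones while all 4 stayed under 1 FPKM. The order of the means was EV (23.2 ± 0.0736 FPKM, SD, n = 2), K56A (22.7 ± 1.45), WT (21.4 ± 0.427), EPZ (0.633 ± 0.0455) and DMSO (0.282 ± 0.399).

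GH1 had no row in the table of DMSO and EPZ, which lists transcripts above 0 in at least 2 of its 4 libraries, and it is set at 0 there. The knockdown libraries were at 12.04 and 10.91 FPKM for EV, 14.4 and 14.3 FPKM for WT and 15.9 and 15.8 FPKM for K56A. As with PDE4B, its 3 knockdown lines did not overlap, and they stood further apart, in the order K56A (15.8 ± 0.0694 FPKM, SD, n = 2), WT (14.4 ± 0.0499) and EV (11.5 ± 0.801). DOT1L stood in the same order of lines, and whether it bears on GH1 was not tested.

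**Figure D1:**
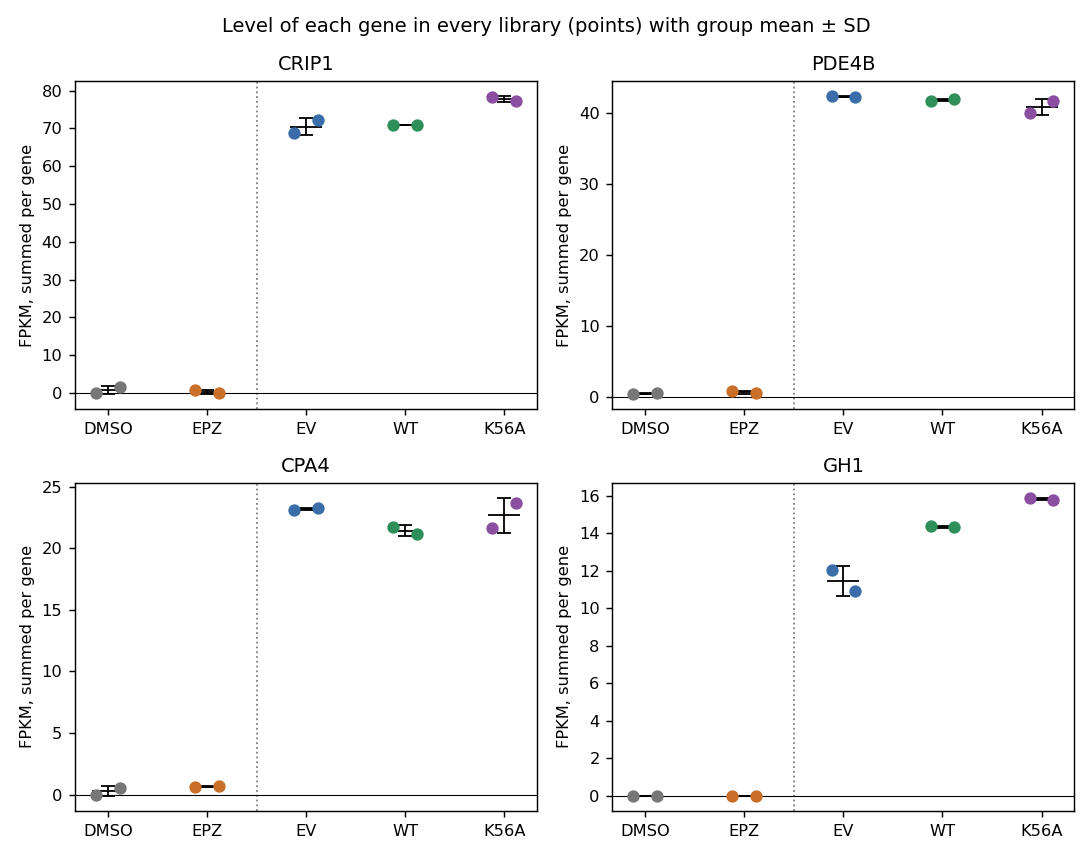
FPKM of CRIP1, PDE4B, CPA4 and GH1 (y axis, summed over transcripts) in the 5 groups (x axis); points are libraries, black bars the group mean ± SD (n = 2), and the dotted line parts the separately normalized experiments. GH1 has no row in the inhibitor table and is drawn at 0 there; every knockdown library of every gene stands above 10 FPKM and every inhibitor library at or under 1.51 FPKM.

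To place the 4 genes among all others, the mean log2(FPKM + 0.5) of DMSO was taken from that of the 6 knockdown libraries for 14276 genes at 1 FPKM or more in at least 2 libraries. The tables were normalized separately and the genes were chosen for this difference, so it carries no test. CRIP1 was 6.20 higher in the knockdown lines and ranked 1 of 14276, with 5.20 when DMSO replicate 1 was left out and 7.20 without DMSO replicate 2. PDE4B was 5.45 higher (rank 7), CPA4 4.97 (rank 10) and GH1 4.83 (rank 11, with DMSO at 0, so that its size follows from the 0.5 added). Over all genes the median was -0.09, the lowest 1% lay under -1.92 and the highest 1% above 2.43. In all, 18 genes were more than 4 higher and 6 more than 4 lower. With the housekeeping genes set level in every library, the median of all genes moved from -0.09 to 0.54, and the ranks of the 4 were the same as before. Ranks changed with other settings: CRIP1 ranked 9 without DMSO replicate 1, behind PDE4B at 7. With 0.1 FPKM added in place of 0.5, CRIP1 ranked 6, GH1 7, CPA4 12 and PDE4B 16.

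**Figure D2:**
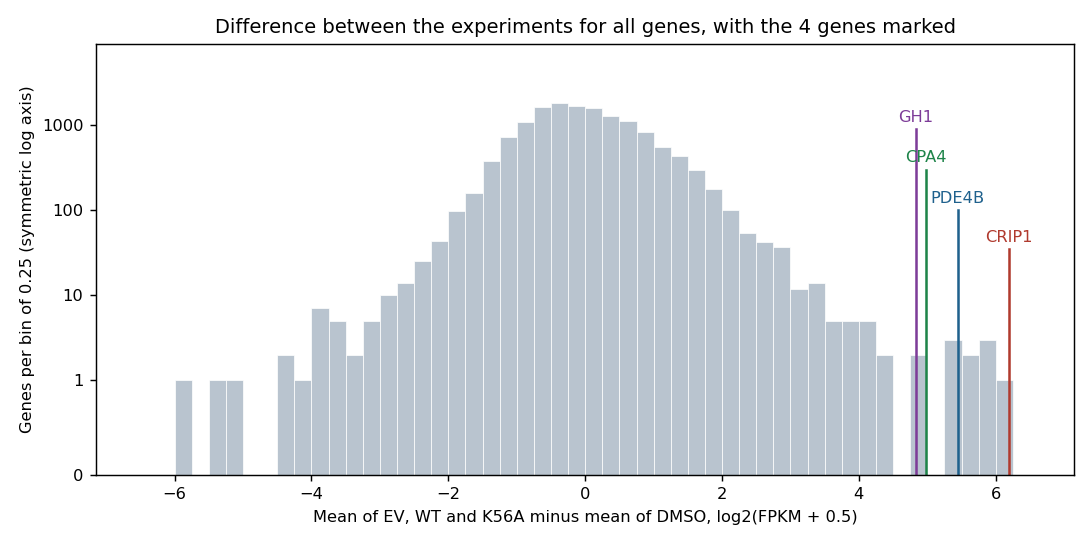
Number of genes (y axis, symmetric log scale) by the difference between the mean of the 6 knockdown libraries and the mean of DMSO on the log2(FPKM + 0.5) scale (x axis, bins of 0.25). Coloured lines mark the 4 genes, at 4.83 for GH1 to 6.20 for CRIP1, beyond the 2.43 that bounds the highest 1% of genes; the heights of the lines carry no value.

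By fixed limits of under 1 FPKM in all 4 inhibitor libraries and at least 10 FPKM in all 6 knockdown libraries, 10 of 14276 genes (0.07%) had this pattern. They included PDE4B, CPA4 and GH1. GH1 stood just inside, with a lowest knockdown library of 10.9 FPKM. CRIP1 stood just outside, because of the 1.51 FPKM in DMSO replicate 2, and CYB5A fell just short with knockdown libraries from 9.44 to 11.5 FPKM. The other 7 were SLC43A3 (an amino acid transporter family member, 26.3 to 30.7 FPKM in the knockdown lines), GPAT2 (26.7 to 33.2 FPKM), HBE1 (embryonic epsilon globin, 22.4 to 30.7 FPKM), OR51B5 and OR51B4 (olfactory receptors, 22.5 to 26.0 and 19.4 to 21.0 FPKM), SQLE (squalene epoxidase of sterol synthesis, 33.5 to 37.7 FPKM) and KRT23 (a keratin, 11.5 to 13.4 FPKM). SLC43A3, GPAT2, HBE1, OR51B5 and OR51B4, like GH1, had no row in the table of DMSO and EPZ and were set at 0 there. HBE1 spans chr11:5268345-5505652 and OR51B5 and OR51B4 lie within that span, so their values are uncertain as separate levels. The reverse pattern was found in 4 genes (0.028%). AL359922.1, TMEM132D-AS1 and DPEP1 had no row in the knockdown tables and were set at 0 there, with 16.2 to 31.0 FPKM in the inhibitor libraries. TENM3 was at 11.5 to 14.9 FPKM in the inhibitor libraries and at most at 0.253 FPKM in the knockdown lines.

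Likeness of pattern was measured as the root mean square difference over the 5 group means of log2(FPKM + 0.5), each gene centred on its own mean, so that 0 is the same pattern. The genes nearest to CRIP1 were SLC43A3 (0.265), GPAT2 (0.283) and HBE1 (0.333). Nearest to PDE4B were OR51B4 (0.084), OR51B5 (0.167) and SQLE (0.204). CPA4 had CYB5A (0.235), GH1 (0.275) and SLC22A17 (0.284), and GH1 had CYB5A (0.265), CPA4 (0.275) and PDE4B (0.298). These are descriptions over 5 means that share their libraries. The 4 genes were chosen for a difference among these same means, so their nearest genes were bound to share it. For genes at 0 in the inhibitor libraries, such as OR51B4, the distance also depends on the 0.5 added.

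No gene beside the 4 differed as much between the experiments. Within 500 kb, measured between gene starts, no neighbour was more than 4 higher in the knockdown lines on the log2(FPKM + 0.5) scale. CRIP1 had 14 measured neighbours with a median of 0.57. CRIP2, the measured gene just before CRIP1, encodes a related LIM protein and was lower in the knockdown lines (-1.77). CRIP2 was at 30.0 to 49.7 FPKM in the inhibitor libraries and 11.9 to 13.4 FPKM in the knockdown ones. TEDC1, the measured gene just after CRIP1, stood at -0.27. The Notch ligand gene JAG2, also near CRIP1, was 1.67 higher (17.3 to 21.3 against 65.6 to 74.6 FPKM). PDE4B had 2 measured neighbours, LEPROT (0.64) and LEPR (-0.35), the latter the leptin receptor gene.

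CPA4 had 8 measured neighbours with a median of -0.04, the highest being AUXG01000058.1 (2.03) and TMEM209 (1.56). MEST and COPG2, an imprinted gene and its neighbour, stood at 0.52 and -0.60. GH1 had 17 measured neighbours with a median of 0.05, of which 4 were more than 1 higher and 1 more than 1 lower. SNHG25, a small nucleolar RNA host gene, was at 1.98 to 5.01 FPKM in the inhibitor libraries and 19.0 to 28.8 FPKM in the knockdown lines (3.21 higher). TCAM1P was 2.59 higher, and SNORA50C was set at 0 in the inhibitor libraries and lay between 0 and 8.50 FPKM in the knockdown ones. CCDC47 was at 154.4 to 166.3 FPKM in the knockdown lines and 65.4 to 77.5 FPKM in the inhibitor libraries, and the proteasome gene PSMC5 was lower (-1.06). Among all 14276 genes, 1746 were more than 1 higher and 1486 more than 1 lower.

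**Figure D3:**
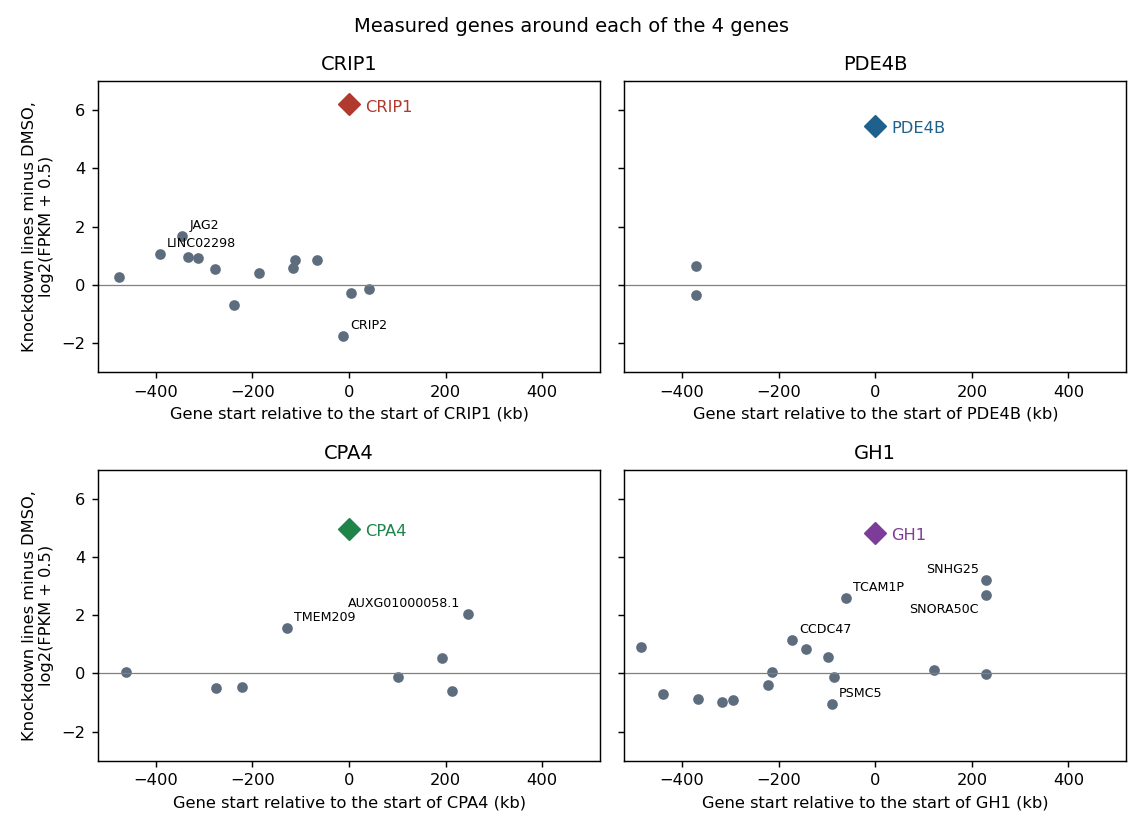
Difference between the knockdown lines and DMSO on the log2(FPKM + 0.5) scale (y axis) for each measured gene (grey points) by its distance in kb from CRIP1, PDE4B, CPA4 or GH1 (x axis, between the lower coordinates of the genes). Diamonds are the 4 genes, at 4.83 to 6.20; named neighbours differed by more than 1, the highest being SNHG25 at 3.21.

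One transcript carried most of the level of each gene in the knockdown lines. CRIP1-202 made up 93.0% to 95.7% of CRIP1 over the 6 libraries, and it was the 1 CRIP1 transcript listed in the inhibitor table. PDE4B-203, a short form that starts at position 66332004 within the gene, made up 79.1% to 86.6% of PDE4B. The longest-spanning form, PDE4B-201, was listed in the table of EV and WT only, at most at 0.266 FPKM. PDE4B-207 added 1.98 to 4.68 FPKM.

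CPA4 was spread over more forms. CPA4-201 made up 66.3% to 75.0%, and 13.4% to 21.6% lay in 2 transcripts with retained introns, chiefly CPA4-205 at 3.11 to 3.57 FPKM. In DMSO and EPZ, CPA4-201 was the 1 form listed. GH1 was GH1-206 alone in all 6 knockdown libraries, the short form printed above. In each gene, the form that led in EV also led in WT and K56A.

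**Figure D4:**
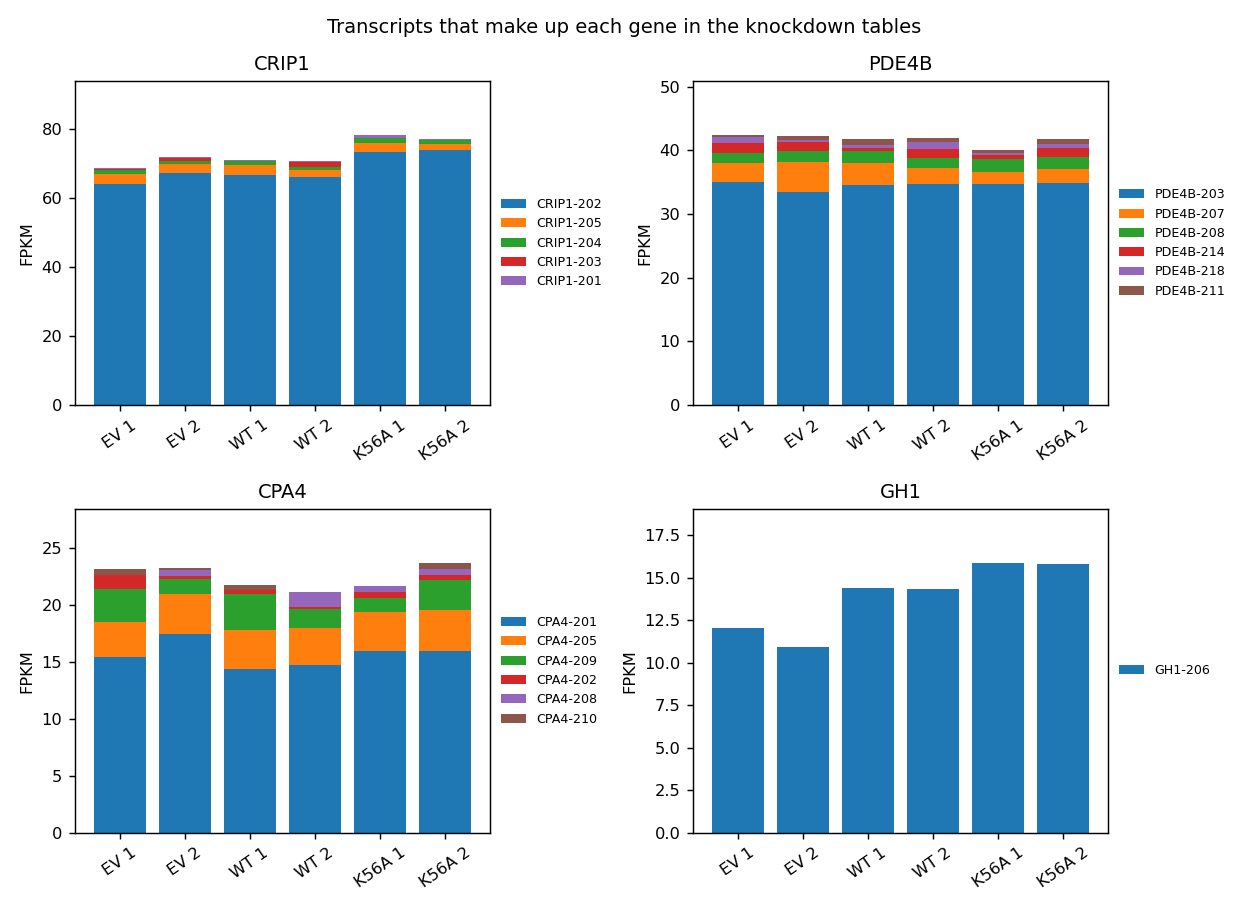
FPKM of each transcript listed in both knockdown tables (stacked bars, y axis) in the 6 knockdown libraries (x axis) for CRIP1, PDE4B, CPA4 and GH1. The lowest segment, CRIP1-202, PDE4B-203, CPA4-201 or GH1-206, holds at least 66.3% of each bar.

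Whether the 3 CDK9 lines differed among themselves was not part of the rule that chose the genes, and it was tested with limma over all 11566 genes of the 6 knockdown libraries, two-sided, with Benjamini-Hochberg adjustment at 0.05. WT versus EV sets wild-type CDK9 put back against EV, K56A versus EV the changed CDK9 against EV, and K56A versus WT the changed against the wild-type CDK9. The construct and the line that carries it cannot be told apart in any of them, and CDK9 and DOT1L levels also differed between WT and K56A, as given above. WT versus EV and K56A versus EV share the EV libraries. The labels do not say whether replicates were separate cultures, so these p-values measure the spread between the samples, which may be technical.

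GH1 was the 1 gene of the 4 with a call, and it was small beside the difference between the experiments. GH1 was higher in K56A than in EV by 0.45 ± 0.07 (log2, SE), a fold of 1.37 on the scale of FPKM + 0.5, with an adjusted p of 0.0374 (limma). Both K56A libraries stood above both EV libraries. Over all genes, 22 rose in K56A versus EV (0.19%) and 91 changed in either direction (0.787%). On leaving out 1 library of the pair, 2 to 9 rose. LHB, the pituitary marker listed, was at 0.982 and 1.33 FPKM in EV and 2.43 and 1.52 FPKM in K56A (0.56 higher, limma adjusted p = 0.279). COL1A1 was at 29.9 and 27.4 FPKM in EV and 36.2 and 34.5 FPKM in K56A (0.30 higher, limma adjusted p = 0.0803), and the part of either in the GH1 difference was not tested. The call held in 4 of 14 other settings, with adjusted p from 0.0370 to 0.265, and it was lost on leaving out any 1 of the EV or K56A libraries (0.0560 without EV replicate 1 and 0.106 without EV replicate 2, 0.215 without K56A replicate 1 and 0.213 without K56A replicate 2). In WT versus EV, GH1 stood 0.31 ± 0.07 higher, with an adjusted p of 0.105, and 62 of all genes passed (0.536%). In K56A versus WT it stood 0.14 ± 0.07 higher, with an adjusted p of 0.466, and 7 of all genes passed (0.0605%).

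CRIP1 did not pass in any of the 3 comparisons. It stood 0.14 ± 0.04 higher in K56A than in EV (limma adjusted p = 0.192) and 0.13 ± 0.04 higher in K56A than in WT (adjusted p = 0.272), with no overlap of libraries in either case. Between WT and EV the difference was 0.01 ± 0.04 (adjusted p = 0.947), and it changed sign without EV replicate 1. PDE4B did not pass either. Its differences were -0.02 ± 0.05 for WT versus EV, -0.05 ± 0.05 for K56A versus EV and -0.03 ± 0.05 for K56A versus WT, with limma adjusted p from 0.670 to 0.912. CPA4 stood 0.11 ± 0.06 lower in WT than in EV (-0.11, limma adjusted p = 0.501), and differed by -0.03 ± 0.06 for K56A versus EV and by 0.08 ± 0.06 for K56A versus WT.

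Of the 12 comparisons of a gene between lines, 9 had libraries that did not overlap (75%), 3 in each contrast. Groups of 2 separate often by this measure: 43.5% of all genes did so in WT versus EV, 45.6% in K56A versus EV and 45.4% in K56A versus WT.

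**Figure D5:**
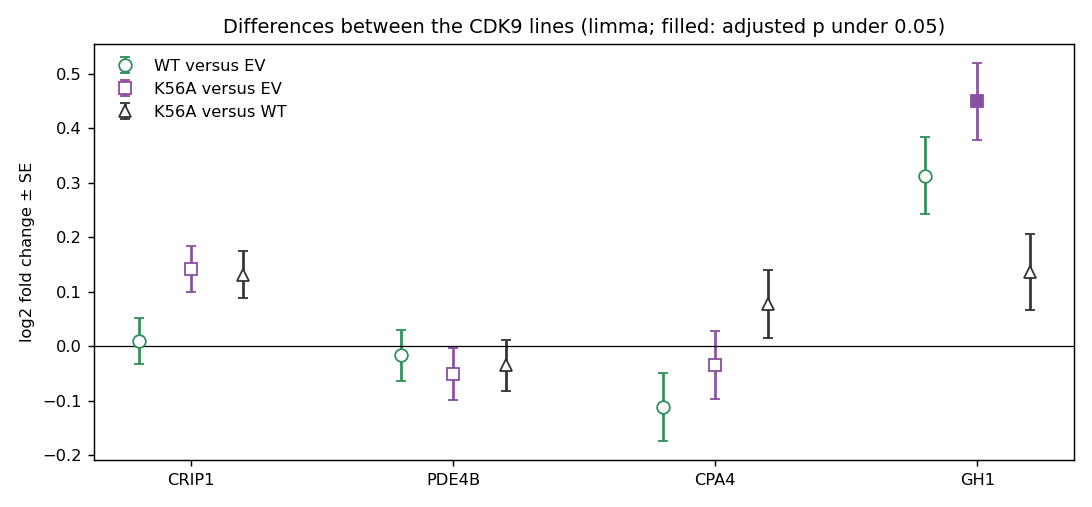
Log2 fold change ± SE (y axis, limma on log2(FPKM + 0.5)) of CRIP1, PDE4B, CPA4 and GH1 (x axis) between the CDK9 lines; circles are WT versus EV, squares K56A versus EV and triangles K56A versus WT, and filled symbols passed an adjusted p of 0.05. GH1 in K56A versus EV, at 0.45, is the 1 filled symbol.

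In the authors' deposited tables, which hold a fold change and p per transcript, 0 of 19 transcripts of these genes had an adjusted p under 0.05 in WT versus EV and 1 of 21 in K56A versus EV. At the same adjusted p, 3.33% of all transcripts in the authors' deposited table passed in WT versus EV and 3.8% in K56A versus EV. At an unadjusted p under 0.05 in the authors' deposited tables, 0 and 2 of the same transcripts passed, against 9.05% and 9.9% of all transcripts. The 1 at the adjusted p was CRIP1-203, a minor form at 0.572 and 0.950 FPKM in EV and 0 in both K56A libraries, with an adjusted p of 0.0177 in the authors' deposited table. For GH1-206, the authors' deposited table gave a log2 fold change of 0.43 in K56A versus EV with an adjusted p of 0.524.

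EPZ was compared with DMSO without a test for the 4 genes, since the DMSO level was part of how they were chosen. In all 4 inhibitor libraries PDE4B and CPA4 stayed under 1 FPKM and GH1 was not listed, and CRIP1 was at 0 in 1 library of each group. Over 13130 genes, 1 changed in EPZ versus DMSO by limma (0.00762%), and 765 had an unadjusted p under 0.05 (5.83%). That count rested on the libraries used: without DMSO replicate 2, 912 genes were higher and 648 lower, and without the others 14 to 44 were higher and 20 to 36 lower.

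No relative of the 4 genes on the lists differed as much between the experiments, and none of these differences was tested. The LIM family list held 16 measured members besides CRIP1, and 9 of them were more than 1 lower in the knockdown lines while 1, LIMA1 (1.01), was more than 1 higher, with a median of -1.10 against -0.09 over all genes, of which 10.4% were more than 1 lower. With the housekeeping genes set level, 3 of the 16 were more than 1 lower and 1 more than 1 higher (median -0.44, against 0.54 over all genes, with 2.42% more than 1 lower). PDLIM5, an adaptor at the actin cytoskeleton, stood lowest (139 FPKM in DMSO and 24.1 FPKM in EV, by group mean). Also among the 9 were CSRP1, LASP1 and ZYX, at -1.17, -1.03 and -1.22. None of the LIM genes tested with limma passed in any of the 4 comparisons (16 tested in EPZ versus DMSO and 12 between the lines), and at an unadjusted p under 0.05 there were 1 in EPZ versus DMSO, 2 in WT versus EV, 3 in K56A versus EV and 1 in K56A versus WT. The shares of all genes at that unadjusted p were 13.5% in WT versus EV, 15.1% in K56A versus EV and 13% in K56A versus WT, beside the 5.83% given for EPZ versus DMSO.

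Among the phosphodiesterases of cyclic AMP, 6 members besides PDE4B were measured, with a median of -0.48 and none beyond 1 in either direction. PDE4A, the most abundant other PDE4, was at 17.6 FPKM in DMSO and 11.7 FPKM in K56A by group mean. PDE4D was at 2.35 and 1.16 FPKM in the same groups, so PDE4B was the leading PDE4 gene in the knockdown lines and PDE4A in DMSO. Of 19 measured genes that make or read cyclic AMP, 3 stood more than 1 higher and 3 more than 1 lower, with a median of -0.29. Over all genes, 12.2% and 10.4% did so. With the housekeeping genes set level, 6 stood more than 1 higher and 0 more than 1 lower, against 30.2% and 2.42% of all genes. The anchoring protein gene AKAP12 was at 36.4 FPKM in DMSO and 394.1 FPKM in EV by group mean (3.45 higher), and the adenylyl cyclases ADCY3 and ADCY9 stood 1.58 and 1.65 higher. CREM, PRKAR2A and PRKAR2B stood at -1.38, -1.22 and -1.25. None of the genes tested on either list passed with limma in any of the 4 comparisons. In EPZ versus DMSO 0 of the 6 phosphodiesterases and 0 of the 19 others had an unadjusted p under 0.05, and between the lines, where 6 phosphodiesterases and 11 of the others were tested, 1 phosphodiesterase was under it in WT versus EV and, of the others, 1 in K56A versus EV and 2 in K56A versus WT.

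Of the carboxypeptidase list, 4 members besides CPA4 were measured. CPE, the carboxypeptidase of hormone processing, stood at 62.2 FPKM in DMSO and 28.5 FPKM in EV (-1.12), CPM at 3.87 and 0.683 FPKM (-1.62), CPQ at -0.77 and CPD at 0.21. Those more than 1 lower were 2 of the 4, and 1 of the 4 with the housekeeping genes set level, against 10.4% and 2.42% of all genes. None passed with limma in any comparison, with 4 tested in EPZ versus DMSO and 3 between the lines, and 0 had an unadjusted p under 0.05. CPA1, CPA5 and the inhibitor gene LXN had no row in the tables.

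The receptor gene GHR had no row in the tables either, and neither did PRLR, STAT5A or IGF1. The only GH1 form listed does not encode growth hormone sequence past its first exon, as given above, and whether a hormone was made was not tested. Of 13 measured genes of growth hormone signalling, none stood beyond 1 in either direction between the experiments and the median was -0.25. With the housekeeping genes set level, 3 of the 13 stood more than 1 higher (median 0.41), against 30.2% of all genes (median 0.54). JAK2 was at 2.39 FPKM in DMSO and 1.72 FPKM in EV, and the targets SOCS2 and CISH stood at -0.16 and -0.35. Between the lines, 12 were tested and IGFBP2 alone passed, in WT versus EV, where 0.536% of all genes did. IGFBP2 fell there by 0.27 ± 0.03 on the log2 scale with an adjusted p of 0.0302 (limma), from a mean of 197.7 FPKM in EV to 163.8 FPKM in WT. That call held in 7 of 14 other settings (adjusted p from 0.0126 to 0.338) and was lost on leaving out any 1 of the 4 EV or WT libraries (0.0668 without EV replicate 1, 0.0880 without EV replicate 2, 0.200 without WT replicate 1 and 0.168 without WT replicate 2). None passed in K56A versus EV, the comparison in which GH1 did, and 1 had an unadjusted p under 0.05 there.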

How the data were processed

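RNA of 10 HCT116 libraries was extracted with TRIzol, and 150 ng per library went into a TruSeq mRNA kit, per the labels' protocols. The authors deposited 3 tables of FPKM per transcript (DMSO and EPZ, EV and WT, EV and K56A), each with their own log2 fold change, p-value and adjusted p-value, which per the file headers are from edgeR in the first and DESeq2 in the others. The submitters' processing notes name GRCh38, RSEM 1.3.3, STAR 2.7.1a, DESeq2 1.32.0 and Trim Galore 0.6.6, without roles. Sources used here give no annotation release or strand setting, and no counts, so the depth of each library is unknown. Another 4 columns of per-group values were left unused.

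FPKM were summed per gene, and a gene with nothing to sum in an experiment was set at 0 there. Both knockdown tables hold the EV libraries, so K56A was multiplied by 1.0007, the mean ratio of the EV values. For the 6 knockdown libraries only transcripts in both tables were summed, and 2284 genes with over 5% of their FPKM in transcripts of 1 table were left out of the tests. Genes at 1 FPKM or more in at least 2 libraries entered limma 3.58.1 under R 4.3.3 as log2(FPKM + 0.5), with an intensity trend, two-sided, Benjamini-Hochberg adjusted at 0.05. Fold changes on this scale understate those of low genes. The procedure was also run on data simulated with normal noise and a spread that followed the level, as the intensity trend assumes. That run could not test this assumption. Alternatives were another pseudocount, no filter, other scalings, no trend, protein-coding transcripts only, a replicate block, fewer libraries and leaving out each library. Sequence was shared where a stretch of 50 bases occurs in GENCODE v29 transcripts of another gene.

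Described by rule were the 4 genes, relatives and passing genes of 14 lists, genes beyond the 2 FPKM limits (1 and 10), the 3 nearest in pattern and neighbours within 500 kb. The members and lists were chosen with earlier results of these data known. Other steps used matplotlib 3.10.9, numpy 2.4.6, pandas 2.3.3 and Python 3.11.15.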

Additional observations from a re-analysis of the deposited data

How the results depend on the processing

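The 4 genes stood higher in the knockdown lines than in DMSO under every alternative tried. They were chosen for that difference, so its direction is no further support. The size of that difference (log2) moved beyond 1 SD for PDE4B to 6.11 with the housekeeping genes set level, 5.67 with mitochondrial genes left out, 6.21 and 4.86 with 0.1 and 1 FPKM added, and 5.19 against EPZ. GH1 moved likewise to 5.48, 5.05, 7.11 and 3.88, and CPA4 to 6.45 with 0.1 added. The SD was that of the log2 values in DMSO for CRIP1 (1.42), PDE4B (0.150) and CPA4 (0.771). For GH1, set at 0 in DMSO, it was that of the knockdown libraries (0.211). Staying within 1 SD therefore says less for CRIP1, whose DMSO libraries lay far apart. On leaving out a DMSO library CRIP1 ran from 5.20 (without replicate 1) to 7.20 (without replicate 2), and it was at 7.51 with 0.1 added. The ranks and list counts given under other settings were added after seeing the data. GH1 in K56A versus EV lost its call with no filter (0.45, limma adjusted p = 0.0659), no intensity trend (adjusted p = 0.265), protein-coding transcripts only (adjusted p = 0.0596), only the 4 libraries compared (adjusted p = 0.0852) and the deposited table alone (0.45, adjusted p = 0.104). No filter, no trend and fewer libraries of other groups cannot move the fold change itself. Leaving out a library gave log2 fold changes from 0.38 to 0.52. On leaving out a library, CRIP1 in WT versus EV ran from -0.0226 (without EV replicate 1) to 0.0423, and CPA4 in K56A versus EV from -0.0978 to 0.0300 (without K56A replicate 1), and neither was a call.

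The labels do not say whether libraries of the same number were paired. Deviations of same-numbered libraries correlated at 0.24 between DMSO and EPZ, 0.03 between EV and WT, -0.01 between EV and K56A and -0.03 between WT and K56A. With the replicate block, GH1 in K56A versus EV lost its call (adjusted p = 0.0587, limma; the balanced design fixes its log2 fold change at 0.45), and the calls higher and lower went from 22 and 69 to 10 and 43 in K56A versus EV and from 2 and 5 to 0 and 3 in K56A versus WT, while those lower in EPZ versus DMSO went from 1 to 2.

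Counts over all genes depended on the setting, and the cause was not tested. In EPZ versus DMSO, 0 genes were lower with 0.1 FPKM added, no filter or no trend, and 1 gene was higher and 2 lower with protein-coding transcripts only. Leaving out a library gave 14 to 912 higher and 20 to 648 lower, the highest without DMSO replicate 2. In WT versus EV (9 higher, 53 lower), 33 were lower with no filter, 30 lower with protein-coding transcripts only, 23 higher and 102 lower without mitochondrial genes, 1 and 0 with no trend, 3 and 8 with only the 4 libraries, 3 and 7 with the deposited table alone, and 2 to 5 and 0 to 2 on leaving out a library. In K56A versus EV, the counts were 10 and 45 with no filter, 2 and 2 with no trend, 6 and 35 with protein-coding transcripts only, 6 and 19 with only the 4 libraries, 4 and 14 with the deposited table alone, and 2 to 9 and 3 to 29 on leaving out a library. In K56A versus WT they were 0 and 1 with no filter or with protein-coding transcripts only, 9 higher without mitochondrial genes, 0 and 0 with no trend, 7 and 14 with only the 4 libraries, and 0 to 1 and 1 on leaving out a library. Where 1 library is left in a group, it is assumed to vary like the others. The depth of the libraries is unknown, so values of under 1 FPKM in DMSO and EPZ have no counting error attached.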

Other observations

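Marker genes outside the comparisons also stood apart between the experiments, in separately normalized tables and with no test. Of 4 measured neural markers, 1 was more than 1 higher (log2) and 2 more than 1 lower in the knockdown lines than in DMSO. Over all genes, 12.2% and 10.4% did so. SYT1, a synaptic vesicle protein gene, was at a mean of 5.55 FPKM in DMSO and 35.5 FPKM in EV, and TUBB3, a neuronal tubulin gene, at 303.9 and 64.5 FPKM. SNAP25, a synaptic membrane protein gene, was at 1.305 FPKM in DMSO and set at 0 in every knockdown library. Of 10 epithelial markers, 2 were more than 1 higher and 1 more than 1 lower. EPCAM was at 155.9 FPKM in DMSO and 373.3 FPKM in EV, CLDN4 at 48.7 and 110.8 FPKM and KRT8 at 1241 and 598.9 FPKM. With the housekeeping genes set level, 5 of the 10 were more than 1 higher and 0 more than 1 lower, against 30.2% and 2.42% of all genes. Between the lines, the tight junction gene CLDN7 fell by 0.41 ± 0.04 (log2, SE) in WT versus EV (limma adjusted p = 0.0125) and by 0.28 ± 0.04 in K56A versus EV (adjusted p = 0.0265), the 1 epithelial marker of 10 that passed in either, where 0.536% and 0.787% of all genes did. These calls held in 10 and 7 of 14 other settings. In WT versus EV the call was lost without EV replicate 2 (0.0620), WT replicate 1 (0.122) or WT replicate 2 (0.166), by limma adjusted p. In K56A versus EV it was lost without any 1 of the EV or K56A libraries (0.0543 to 0.184). B2M, of the housekeeping list, fell by 0.37 ± 0.04 in K56A versus EV (limma adjusted p = 0.0113), a call that held in 11 of 14 other settings and was lost without K56A replicate 1 (0.0788) or K56A replicate 2 (0.105).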
